A study of Homo sapiens with 34 samples.

Results

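The data describe how fast mRNA was lost in the CCND1 knockdown line of hTERT-RPE1, an immortalised human retinal pigment epithelial cell line. All samples whose titles name the CCND1 knockdown were taken, which gave 17 of the 34 libraries of the series, and the other 17 came from an overexpression line. Knockdown cells carried a doxycycline-inducible shRNA against the 3′ UTR of CCND1, the gene of cyclin D1, and were polyclonal cells sorted for the GFP of the vector. By the study's methods the overexpression cells carried the same shRNA together with an inducible CCND1 allele that it spares, so the shRNA was shared by both lines. Both lines received 0.5 µg/mL doxycycline. From day 4 the RNA was labelled over 24 h with 10 µM 4-thiouridine (s4U), renewed every 3 h, and then chased with 1 mM uridine. Cells kept unlabelled had 10 µM uridine instead of s4U. The knockdown libraries form a pair of time courses, named here by their replicate numbers. Course 1 held 7 libraries, unlabelled and chased for 0, 45, 180, 360, 720 and 1440 min. Course 2 held 10 libraries, with further time points at 10, 20 and 90 min. Nothing in the labels ties the courses to separate cultures, so the spread between them may be technical.

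SLAM-seq reads the age of mRNA. s4U taken up into new transcripts is alkylated after extraction and then read as C, so the share of T positions read as C (the T>C rate) counts labelled RNA. Once the label is withdrawn, the rate of a transcript falls as labelled copies are degraded and as unlabelled copies replace them. Transcripts of regulatory genes such as immediate early transcription factors and cytokines are known as short-lived, with decay triggered by elements in the 3′ UTR that recruit deadenylases, while transcripts of structural, metabolic and translation genes are known as stable.

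The knockdown libraries held 25965422 to 44480703 reads in annotated 3′ UTR intervals and 9968 to 10354 genes at 1 CPM (reads scaled to the mapped depth of the library) or more. CCND1 lay at 58.2 to 130 CPM (median 110) in the 17 knockdown libraries and at 24.8 to 56.9 CPM (median 39.4) in the 17 overexpression libraries, without overlap. The reads lie in the 3′ UTR that the shRNA targets in both lines, so this level does not check either label. Of 13 markers of retinal pigment epithelium, only MITF, the lineage's transcription factor, reached a median of 1 CPM (51.7 CPM, lowest 32.9, highest 74.8), and RPE65, TYR and TTR had a median of 0 CPM. Of 15 epithelial, mesenchymal and endothelial or blood markers, 7 reached a median of 1 CPM. The mesenchymal and simple epithelial markers VIM, CDH2, THY1, KRT8 and KRT18 lay at medians of 341 to 5382 CPM. KRT7 and PDGFRB were lower, at 6.85 and 13.9 CPM, and the epithelial markers KRT19, CDH1 and EPCAM had a median of 0 CPM.

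At the start of the chase, all reads together had a T>C rate of 0.891% in course 1 and 0.849% in course 2, against 0.0194% and 0.0296% in their unlabelled libraries. After subtraction of the unlabelled rate, course 1 kept 96.8% of its starting label at 45 min, 83.3% at 180 min, 57.6% at 360 min, 30.4% at 720 min and 9.95% at 1440 min. Course 2 kept 98.2%, 82.8%, 59.8%, 28.8% and 8.70% at the same times and the courses lay closest at 180 min. The early libraries of course 2 were not in time order, with 90.9% of the label at 10 min, 94.7% at 20 min and 95.2% at 90 min, all below the 45 min library.

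A half-life was fitted per gene and course as an exponential decay of the background-corrected rate relative to 0 min, kept where the fit had an R2 of 0.6 or more. Of 9321 genes with enough reads in both courses, 4191 had a half-life in both. Their median was 4.96 h as the mean of the courses (4.82 h in course 1 and 5.13 h in course 2, SD 0.218 h). The middle 80% of genes lay between 2.59 and 10.1 h, a 3.89-fold range. Only 83 genes were under 2 h in both courses, 160 were over 12 h in both and 13 were over 24 h in both. Half-lives include the dilution of label by growth, and those near or above the 24 h chase are extrapolated. The study estimated that these cells divide in about the length of the chase. Fitted values well beyond 24 h conflict with dilution at that rate and are not to be read as mRNA lifetimes. The reason for them was not tested.

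Each gene's log2 half-life was tested against the median of its course with limma over all 4191 genes. With a common prior variance limma called 0 genes shorter-lived (0% of those tested) and 0 longer-lived (0%), although 632 and 732 had an unadjusted p under 0.05. The smallest limma adjusted p of that fit was 0.0827. With the prior variance allowed to follow abundance, as the listed alternative, limma called 194 genes shorter-lived (4.63%) and 583 longer-lived (13.9%). Genes called shorter-lived had a median half-life of 2.16 h and none exceeded 3.71 h. Genes called longer-lived had a median of 11.4 h and none lay under 6.78 h. The genes called longer-lived had a median of 172 CPM, against 49.0 CPM for those called shorter-lived and 49.9 CPM for all tested. The calls counted below for gene lists are those of the fit with the variance trend. So are the adjusted p-values of single genes against the line median. The counts are to be read against 4.63% and 13.9%, and with depth in mind. Across genes half-life rose with CPM (Spearman's rho 0.541). List depths differed, from a median of 17.7 CPM for genes with ZNF symbols to 969 CPM for cytosolic ribosomal proteins. The part of depth in the calls was not tested.

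Several lists of transcription factors and secreted signals had medians well under that of the line. Of 15 KLF and SP zinc finger factors with enough reads, 7 had a half-life in both courses. Their medians were 2.69 h in course 1 and 2.41 h in course 2. Of these, 2 were called shorter-lived, and all 7 lay under the line median. All 16 immediate early and AP-1 factors with a half-life, of 21 with enough reads, did so too. Their medians were 2.72 and 2.61 h, and 8 were called shorter-lived. ZFP36, which encodes tristetraprolin, a protein that itself recruits deadenylases to AU-rich mRNAs, was the shortest-lived of these at 0.359 and 0.891 h. Secreted cytokines and growth factors had half-lives for 11 of 22 genes with enough reads. Their medians were 2.85 and 3.20 h, with all 11 under the line median and 5 called shorter-lived. LIF, a cytokine of the interleukin 6 family, was the shortest-lived at 2.09 and 1.59 h. The feedback inhibitors of ERK signalling had 5 half-lives among 17 genes with enough reads, with medians of 1.98 and 3.18 h, and 2 were called shorter-lived. Among these, DUSP5, a nuclear phosphatase of ERK, had half-lives of 1.98 and 0.957 h. NFKBIA, the inhibitor that NF-kB induces against itself, had half-lives of 2.44 and 1.58 h and was called shorter-lived (limma adjusted p = 0.0153). It was the only called gene of the 9 NF-kB subunits and feedback genes with a half-life, whose median was 3.98 h. The TGF-beta response (4.08 h) and the MYC network (4.46 h) also lay nearer the line median.

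Chromatin modifiers and ZNF genes also had medians under that of the line, while F-box genes lay nearer to it. Chromatin modifiers had medians of 3.04 and 3.32 h over 33 genes, with 7 called shorter-lived and none called longer-lived. Genes with ZNF symbols, many of which encode KRAB-type repressors, had medians of 2.42 and 2.72 h over 52 genes, 46 of them under the line median and 6 called shorter-lived. Only 52 of the 289 ZNF genes with enough reads had a half-life in both courses, at a median of 17.7 CPM. Over all 289, the median label left at 180 min was 44.4% in course 1 and 33.8% in course 2, against 74.8% and 68.3% over the 10011 genes with enough reads. The F-box and cullin ubiquitin ligase genes had medians of 4.16 and 3.93 h, with 2 of 27 called shorter-lived and 1 longer-lived. Target genes of YAP, the transcriptional effector of the Hippo pathway, were split. Their medians were 3.09 and 3.12 h, 7 of 17 were called shorter-lived and 3 longer-lived. CYR61, a matricellular growth regulator, lay at 1.85 and 1.97 h, while AXL, a receptor tyrosine kinase in the same list, lay at 14.9 and 10.4 h.

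**Figure D1:**
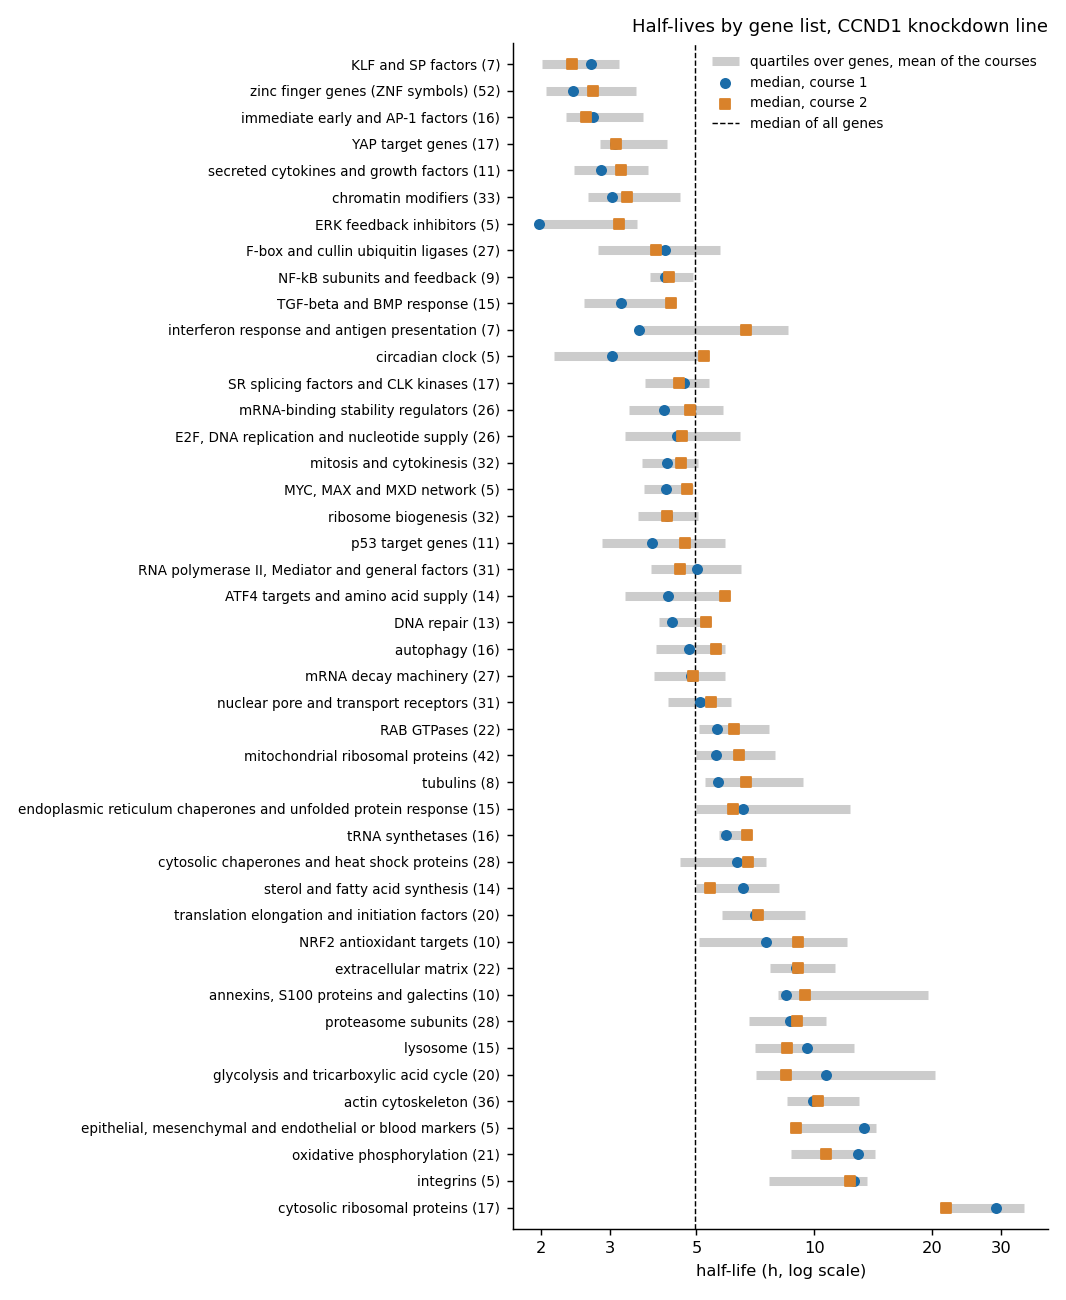
Half-lives (h, log scale) of the 44 gene lists with at least 4 half-lives, the number of genes in brackets. Points are the list medians in course 1 and course 2, grey bars the quartiles over genes of the mean half-life, and the dashed line the median of all genes, 4.96 h. Lists run from KLF and SP factors at 2.69 and 2.41 h to cytosolic ribosomal proteins at 29.1 and 21.7 h.

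The shortest-lived single transcripts by rule were those whose longer course value was lowest among genes of 10 CPM or more. These were SNAPC4, GDNF, ZFP36, RBAK, C8orf58, RSBN1L, WDR89, CENPA, VHL, RPUSD2, NME6 and RNF111, the shallowest of them ZFP36 at 10.1 CPM. GDNF, a neurotrophic factor, kept 53.3% of its label at 45 min and 10.2% at 180 min in course 1. In course 2 it kept 64.4% at 10 and 20 min, 24.9% at 45 min, 39.6% at 90 min and 0.556% at 180 min. CENPA, the histone variant of centromeres, had fitted half-lives of 1.18 and 1.15 h at 14.3 CPM, the shortest of 32 mitosis genes. It kept 42.6% and 41.4% of its label at 180 min, more than these half-lives imply. In course 1 it kept less, 33.6%, at 45 min. VHL, the ubiquitin ligase subunit that marks hypoxia-inducible factors, had 1.22 and 1.11 h. The courses were far apart for some of these, as for NME6 at 0.295 and 1.27 h. Single curves were irregular too. SNAPC4 in course 1 kept 1.15% at 360 min and 43.4% at 720 min. C8orf58 in course 1 was set to 0% at 360 min, where its T>C rate of 0.267% did not exceed its unlabelled rate. Its rate at 0 min was 0.546%. At 10 to 30 CPM, 50.4% of genes agreed within 1.5-fold between the courses.

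KLF6, a zinc finger transcription factor of 198 CPM, kept 79.1% of its label at 45 min, 32.8% at 180 min, 6.48% at 360 min, 1.73% at 720 min and 0.722% at 1440 min in course 1. In course 2 it kept 98.4% at 10 min, 78.3% at 20 min, 70.2% at 45 min, 57.4% at 90 min, 33.0% at 180 min, 7.78% at 360 min and 0% at 720 and 1440 min. The courses were nearly equal at 180 min. The half-lives were 1.85 and 1.73 h, a log2 distance of -1.48 from the line median (SE 0.16, limma adjusted p = 0.00355). CYR61, at 901 CPM, kept 30.8% and 28.7% at 180 min, with a log2 distance of -1.38 (SE 0.11, limma adjusted p = 0.00199). IER3, an immediate early gene that modulates ERK activity, kept 37.8% and 31.6% at 180 min and had half-lives of 1.91 and 2.08 h. WEE1, the kinase that holds CDK1 inactive, had 2.04 and 1.87 h at 23.8 CPM.

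Growth and division genes lay near the middle of the distribution. Mitosis and cytokinesis genes had medians of 4.21 and 4.57 h (32 genes, 2 called shorter-lived and 1 longer-lived). DNA replication and nucleotide supply genes had 4.45 and 4.59 h (26 genes, 2 and 0). Ribosome biogenesis genes had 4.20 and 4.20 h (32 genes, 1 and 2). Within these lists single members ranged widely. CDC6, which loads the replicative helicase, had 1.18 and 2.24 h and was called shorter-lived, whereas PTTG1, the securin that restrains separase, had 7.45 and 9.20 h and was called longer-lived. NPM1, an abundant nucleolar chaperone, had 12.6 and 11.7 h, against 1.53 and 2.44 h for RIOK2, a kinase of 40S maturation. CCND1 itself, read in the 3′ UTR that the shRNA targets, had half-lives of 4.99 and 4.51 h (4.75 h ± 0.337, SD, n = 2 courses). It was not called different from the line median (limma adjusted p = 0.827). Its label was above the 0 min rate at the early times. CCND1 kept 147% of the 0 min rate at 45 min and 86.3% at 180 min in course 1, and 132% at 20 min, 109% at 45 min and 59.3% at 180 min in course 2. MYC, at 23.9 CPM, had 1.40 h in course 1 and 4.72 h in course 2 and was not called.

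The machinery that destroys mRNA was itself of middling stability, with medians of 4.85 and 4.90 h over 27 genes, 1 called shorter-lived and 4 longer-lived. The gene called shorter-lived was TOB2, at 2.16 and 2.14 h. TOB1, an adaptor of the CCR4-NOT deadenylase, had 3.32 and 1.38 h at 15.4 CPM and was not called (limma adjusted p = 0.147). LSM3, a subunit of the LSM rings that act in decapping and splicing, had 19.8 and 17.1 h and was called longer-lived. RNA-binding regulators of stability had 4.13 and 4.81 h over 26 genes, from ZFP36 to PABPC4, a poly(A)-binding protein with 13.6 and 14.7 h.

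Transcripts of the protein and energy machinery were slow. Of 20 translation initiation and elongation factors, 7 were called longer-lived, and the medians were 7.06 and 7.18 h. The exception by call was EIF4A2, a helicase paralogue, at 3.30 and 2.46 h (limma adjusted p = 0.0443), which was called shorter-lived. Proteasome subunits had medians of 8.65 and 9.05 h, with 26 of 28 above the line median and 15 called longer-lived. PSMB6, a catalytic subunit, was the longest-lived at 16.9 and 21.1 h. All 21 oxidative phosphorylation genes lay above the line median, with medians of 12.9 and 10.7 h and 15 called longer-lived. COX7C, a subunit of cytochrome c oxidase, had 28.9 and 21.3 h. Glycolysis and tricarboxylic acid cycle genes had 10.7 and 8.46 h (9 of 20 called longer-lived). LDHB, a lactate dehydrogenase subunit, had 36.2 and 22.3 h, and GAPDH, a glycolytic dehydrogenase, 38.1 and 20.6 h. Mitochondrial ribosomal proteins lay nearer the line median, at 5.61 and 6.42 h over 42 genes, with 4 called longer-lived and 1, MRPL44, called shorter-lived. Aminoacyl-tRNA synthetases had 5.95 and 6.73 h over 16 genes, only 1 of them called.

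Actin cytoskeleton, matrix, lysosome and integrin genes also lay mostly above the line median. Tubulins lay nearer to it, at 5.69 and 6.68 h, with 2 of 8 called longer-lived. Of 36 actin cytoskeleton genes, 35 lay above the line median and 28 were called longer-lived, the largest share of any list of 20 or more, with medians of 9.90 and 10.2 h. All 22 extracellular matrix genes were above the line median (median 8.51 h) and 11 were called. All 15 lysosome genes (9.60 and 8.53 h) and all 5 integrins (12.6 and 12.3 h) were above it, with 7 and 4 called. FN1, fibronectin, kept 96.3% of its label at 45 min, 89.0% at 180 min, 78.2% at 360 min, 61.2% at 720 min and 37.5% at 1440 min in course 1, and 92.8%, 88.6%, 76.0%, 59.1% and 41.0% at the same times in course 2. Its half-life was 16.9 h ± 0.0208 (SD, n = 2 courses), a log2 distance of 1.77 (SE 0.10, limma adjusted p = 9.4e-04). MMP2, a gelatinase, had 19.0 and 26.1 h. RHOA, the GTPase that drives stress fibres, kept 40.3% at 1440 min in both courses and had 22.9 and 22.0 h. Annexins, S100 proteins and galectins were split, with 8 of 10 called longer-lived and 1, LGALS8, called shorter-lived at 1.43 and 2.25 h, while LGALS1, galectin 1, had 37.7 and 30.2 h.

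The longest-lived transcripts by rule included GSTP1, RPL27A, RPLP1, RPS12, LGALS1, MYL6, B2M, TGFBI, RPS24, IGFBP7 and RPL31, of which 5 encode cytosolic ribosomal proteins. GSTP1, a glutathione transferase, kept 78.0% and 73.9% of its label at 1440 min, and its fitted 87.3 and 50.9 h lie far beyond the chase. RPLP1, a stalk protein of the large subunit, kept 83.2% and 77.7% at 720 min and 73.2% and 62.3% at 1440 min. B2M, the light chain of class I antigen presentation, had 29.6 and 28.6 h, and TGFBI, a matrix protein, had 29.2 and 28.4 h, so these were close between the courses.

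**Figure D2:**
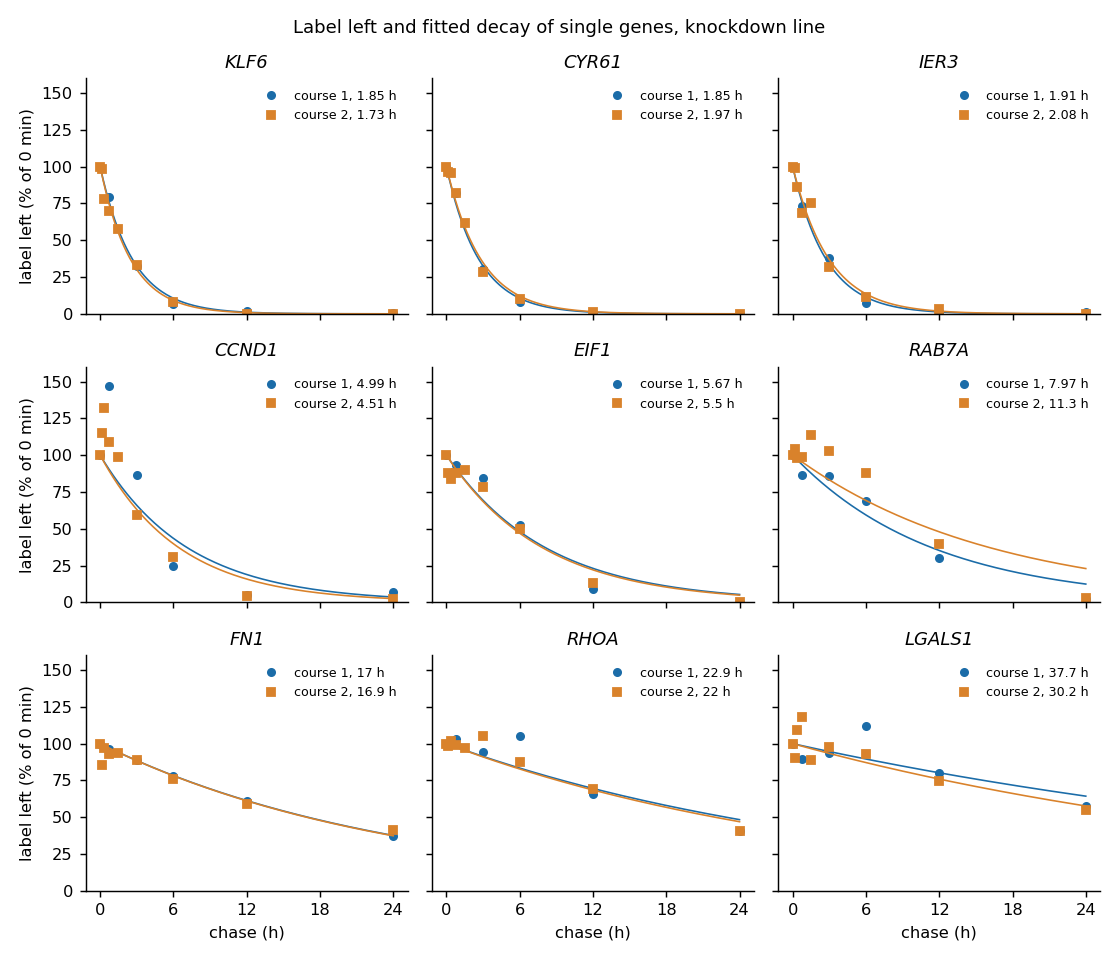
Label left (% of the 0 min rate) against chase time (h) for 9 transcripts, with points for the libraries of course 1 and course 2 and lines for the fitted exponentials. KLF6, CYR61 and IER3 were near 0% by 720 min, EIF1 kept 8.93% and 13.1%, and LGALS1 kept 80.0% and 74.5%.

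Some of the most stable transcripts had no half-life, since their fits failed the R2 filter. Of 79 cytosolic ribosomal protein symbols, 42 had enough uniquely mapped reads and 17 had a half-life in both courses, all 17 called longer-lived, with medians of 29.1 and 21.7 h. Those 17 kept a median of 50.1% and 37.5% of the label at 1440 min. The other 25 kept more, 76.2% and 55.5%. Among all genes of 50 CPM or more, 181 of 2473 in course 1 and 289 of 2475 in course 2 failed on R2. They kept a median of 79.3% and 55.2% at 720 min, against 15.3% and 15.2% in genes with a half-life. Their rate at 0 min was also lower, 0.562% and 0.639% against 0.963% and 0.917%. Over all depths the genes that failed on R2 had median levels of 11.1 and 11.7 CPM, against 31.0 and 44.8 CPM in genes with a half-life. These failures kept 10.2% of the label at 720 min in course 1, against 6.47% in genes with a half-life, and 2.85% in course 2, against 6.99%. The label left needs no fit and includes the genes without a half-life in the plot of label by gene list.

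**Figure D3:**
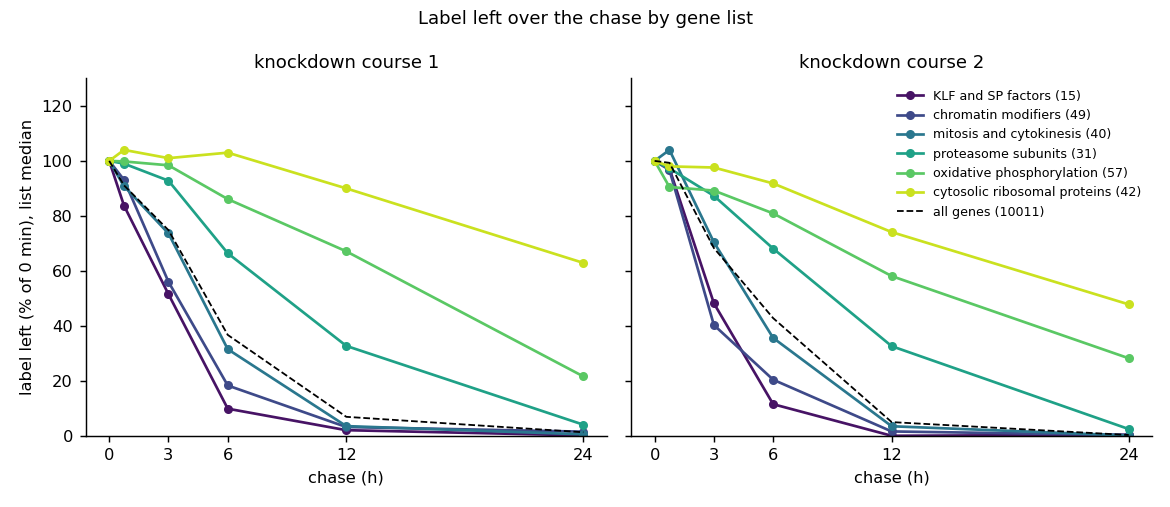
Median label left (% of the 0 min rate) against chase time (h) for 6 gene lists in each knockdown course, over every gene with enough reads and without the R2 filter, the number of genes in brackets, and for all genes (dashed). At 720 min the medians were 90.0% and 74.1% for cytosolic ribosomal proteins, 67.1% and 58.1% for oxidative phosphorylation, 32.7% and 32.6% for proteasome subunits, 3.52% and 3.47% for mitosis and 2.04% and 0% for KLF and SP factors.

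Decay was not exponential in the average transcript. Over 2092 genes of 50 CPM or more with a half-life in both courses, the label at 180 min lay above the fitted curve by a median of 11.1 percentage points in course 1 and 8.99 in course 2. At 720 min the median of observed minus fitted was -6.54 points in course 1 and -8.10 in course 2. In the quintile of genes with the longest half-lives the gap was widest at 1440 min, where the observed medians were 7.98% and 7.36% and the fitted ones 20.7% in both courses. RAB7A, the GTPase of late endosomes, kept 69.1% and 87.6% at 360 min, 30.3% and 39.5% at 720 min and 2.51% and 2.87% at 1440 min. Its half-lives were 7.97 and 11.3 h. Over all reads the half-life between pairs of libraries was 11.4 and 11.0 h from 0 to 180 min, 5.63 and 6.38 h from 180 to 360 min, 6.51 and 5.68 h from 360 to 720 min and 7.44 and 6.96 h from 720 to 1440 min. A fit to the times from 180 min on alone gave a median of 3.30 h for 6232 genes.

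Some short half-lives coincided with a rise in the transcript itself. KLF6 lay at 364 CPM at 180 min in both courses, against 134 and 125 CPM at 0 min. LIF lay at 71.2 and 87.1 CPM at 180 min, against 16.9 and 19.9 CPM at 0 min, and DUSP5 at 96.7 and 92.3 CPM at 360 min, against 28.0 and 20.2 CPM at 0 min. PLAT, tissue plasminogen activator, lay at 255 and 458 CPM at 1440 min, against 17.5 and 18.5 CPM at 0 min, and its fit gave 1.38 h in course 1 and failed in course 2 (R2 of 0.254). Of 190 genes of 10 CPM or more called shorter-lived, 16 (8.42%) reached 2-fold of their 0 min level at a later shared time in both courses, as did 0 of 583 called longer-lived and 0.981% of all 4077. New unlabelled RNA lowers the T>C rate without decay of the old. Multiplying the label left by the relative CPM, an alternative added after seeing the data, gave KLF6 half-lives of 4.18 and 4.87 h and IER3 3.08 and 3.97 h. LIF had 5.70 h in course 2 only and DUSP5 4.73 h in course 1 only. The same calculation left CYR61 at 2.05 and 2.10 h, NFKBIA at 2.45 and 1.76 h and WEE1 at 1.72 and 1.68 h. By list, the median became 4.25 h for KLF and SP factors (4 genes) and 3.71 h for cytokines (6 genes). It became 3.43 h for immediate early and AP-1 factors (9 genes), and the ERK feedback inhibitors had too few half-lives for a median. For ZNF genes it was 2.55 h (37 genes), for chromatin modifiers 2.86 h (26 genes) and for YAP targets 3.32 h (16 genes). Over all 3442 genes fitted this way the median was 4.93 h.

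Agreement of the courses followed depth. Over 4191 genes the log2 ratio of course 1 to course 2 had a median of -0.06 and an SD of 0.80, next to an SD of 0.86 between genes. Half-lives agreed within 1.5-fold for 2750 genes (65.6%) and differed over 2-fold for 610 (14.6%). The share within 1.5-fold was 24.6% at 1 to 10 CPM, 50.4% at 10 to 30, 66.4% at 30 to 100, 84.6% at 100 to 300 and 89.5% at 300 CPM or more. Some deep and slow transcripts departed from this. Of the 17 ribosomal protein genes, 10 (58.8%) agreed within 1.5-fold, with medians of 29.1 h in course 1 and 21.7 h in course 2. RPS24 had 55.9 and 27.3 h at 2561 CPM, and GAPDH 38.1 and 20.6 h at 2777 CPM. Among the ribosomal genes, RPL15 (15.7 and 16.1 h) and RPS6 (20.3 and 22.3 h) were longer in course 2. Across genes, which are not independent replicates, Spearman's rho was 0.678 overall and 0.885 over 983 genes of 100 CPM or more. The spread exceeded the counting error of the conversions. At 100 to 300 CPM the ratio had a robust SD of 0.42, where the counts alone gave a median SE of 0.10. List medians agreed better than single genes, with 41 of 44 lists within 1.5-fold. The other 3 were ERK feedback inhibitors, the circadian clock and interferon response, with 5, 5 and 7 half-lives.

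**Figure D4:**
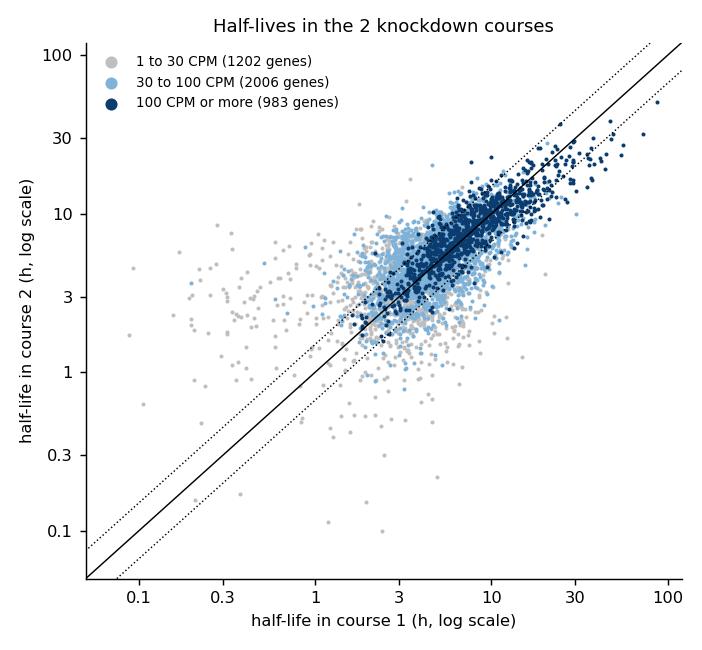
Half-life in course 2 against course 1 (h, both axes log) for the 4191 genes, coloured by mean CPM, with the line of identity and dotted lines at 1.5-fold. Most genes of 100 CPM or more lie near the identity line, though some deep genes with long half-lives lie towards course 1. The scatter at short half-lives belongs mostly to genes under 30 CPM.

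**Figure D5:**
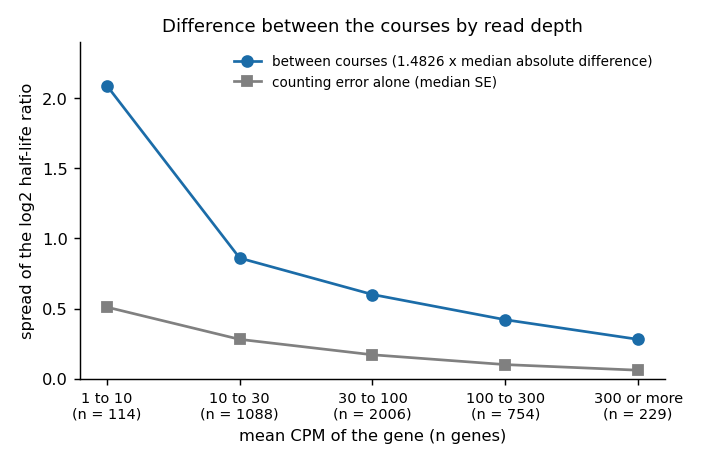
Spread of the log2 half-life ratio of the courses against mean CPM of the gene, as a robust SD scaled from the median absolute log2 ratio (blue) and as the median standard error from counting alone (grey). The spread between courses was 2.09 at 1 to 10 CPM and 0.28 at 300 CPM or more, against 0.51 and 0.06 from counting.

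The label left at single times showed where the courses agreed. Over 2473 genes of 50 CPM or more, the rank correlation of the courses across genes was 0.0519 at 45 min, 0.350 at 180 min, 0.754 at 360 min, 0.844 at 720 min and 0.615 at 1440 min. The median difference between the courses was under 2 percentage points at each time, while the median absolute difference was 16.1 points at 45 min and 6.41 at 720 min. The filter also weighed on the courses unequally. Course 1 kept 6789 of 9532 fitted genes (71.2%) and course 2 kept 4799 of 9800 (49.0%). Fitted on the time points both share, course 2 kept 7325, and without its 10 min library 5921.

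The strongest disagreements among genes of 50 CPM or more, listed by rule, had course 1 longer for RNF115 (11.0 and 2.13 h), TOMM70 (8.09 and 2.22 h), UBXN6 (15.5 and 4.74 h) and LARP7 (3.65 and 1.15 h). Course 2 was longer for BRD3 (0.597 and 2.89 h), EMP3 (4.61 and 20.3 h), SHCBP1 (3.11 and 10.9 h) and ABLIM3 (2.24 and 7.41 h). EMP3, a small membrane glycoprotein, kept 15.1% at 360 min and 45.8% at 720 min in course 1, so more at the later time, and 104% and 63.0% in course 2. RNF115, a ubiquitin ligase, kept 126% at 180 min in course 1 and 22.8% in course 2. These pairs were chosen for their disagreement and carry no test.

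The counted 3′ UTR intervals of the longest-lived transcripts were the shortest and held the fewest of 2 known decay elements. The nonamer TTATTTATT is the core of AU-rich elements, bound by tristetraprolin, and TGTANATA is the site of Pumilio proteins, which recruit deadenylases. Copies in the 3′ UTR of some transcripts called shorter-lived that carry a motif are shown to place it, with 10 bases on either side. The motif is in capitals, 5′ to 3′ on the transcript strand, from the hg38 reference. Other copies, such as that of TGTANATA in KLF6, are not shown. Of the 12 shortest-lived genes, 4 had a single interval, of which 1 held TTATTTATT and 1 TGTANATA, and the transcripts shown were picked as carriers.
GDNF copy 1, chr5:37814661-37814689, minus strand: taagttattgTTATTTATTaccgttcact
GDNF copy 2, chr5:37814621-37814649, minus strand: cttttttcccTTATTTATTaaagtttctt
LIF copy 1, chr22:30240958-30240986, minus strand: ctccgggcccTTATTTATTatttaaacat
LIF copy 2, chr22:30240535-30240563, minus strand: cagattatttTTATTTATTcaatgtcata
PLK3 copy 1, chr1:44805900-44805928, plus strand: tggaccacttTTATTTATTgtcagacact
PLK3 copy 2, chr1:44805918-44805946, plus strand: tgtcagacacTTATTTATTgggatgtgag
VHL, chr3:10150830-10150857, plus strand: tgttccttttTGTAAATAtgtgacattc

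PLK3, a stress-responsive kinase in the p53 list, had half-lives of 2.07 and 1.75 h, and its counted interval is only 312 bases long. The features were read on the transcript strand from genes with a half-life and a single counted interval, 307 to 428 in each half-life quintile. The median interval was 1697, 1898, 1806, 1436 and 886 bases from the shortest-lived quintile (under 3.27 h) to the longest-lived (over 7.71 h), so the length did not follow half-life over the first 3. TTATTTATT occurred in 13.8%, 14.1%, 10.4%, 12.9% and 3.57% of intervals from the shortest- to the longest-lived quintile, and TGTANATA in 44.9%, 36.9%, 38.1%, 34.7% and 17.9%. Over all 7991 measured single intervals, expressed or not, the shares were 7.08% and 20.5%. Per kilobase, which takes out the length, TGTANATA occurred 0.321 times in the shortest-lived quintile and 0.168 times in the longest-lived, and TTATTTATT 0.0940 and 0.0267 times, while all measured intervals held 0.226 of TGTANATA and 0.0746 of TTATTTATT. These are descriptions without a test. The order was not smooth for TTATTTATT, which stood at 0.0508 per kilobase in the middle quintile and 0.0853 in the next. GC content differed little, at 40.8% and 42.6% in the shortest- and longest-lived quintiles. Abundance moved with half-life too, from a median of 24.3 CPM in the shortest-lived quintile to 114 CPM in the longest-lived, and its part in these shares was not tested. A match is a string of letters and not a shown site.

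Set against the overexpression line, the order of half-lives was similar and no gene was called different. Half-lives were available in all 4 courses for 3314 genes, with a rank correlation of 0.803 between the lines across genes. The knockdown medians over these genes were 4.99 and 5.36 h (5.17 h ± 0.259, SD) and the overexpression medians 4.89 and 4.44 h (4.67 h ± 0.313), which do not overlap. The exact permutation test of 2 against 2 courses gave a two-sided p of 0.333, the smallest it can give. The early chase times differed between all 4 courses. Overexpression course 1 was sampled at 20 and 90 min and overexpression course 2 at 10, 20 and 45 min. The median of knockdown course 2 over its kept genes was 5.05 h on all its times and 4.42 h on those shared with knockdown course 1. The part of the time points in the gap between the lines was not tested. At 1440 min knockdown libraries kept 9.95% and 8.70% of the label over all reads, against 5.69% and 4.17% in overexpression libraries, with the same p of 0.333. Differences in decay and in dilution by growth cannot be told apart here. limma on log2 half-life (knockdown minus overexpression), with a common prior variance, called 0 of 3314 genes (0%), while 256 had an unadjusted p under 0.05. The median log2 difference was 0.20, and 68.1% of genes lay above 0. List medians were longer in knockdown cells for slow and fast lists alike, with exceptions. The 17 ribosomal protein genes had a median of 25.4 h in knockdown cells and 15.8 h in overexpression cells, and all 17 were longer in knockdown cells. Lysosome genes had 10.5 and 6.60 h (11 of 14 longer in knockdown cells) and oxidative phosphorylation genes 12.7 and 9.54 h (15 of 18). Immediate early factors had 2.95 and 2.31 h (13 of 15), cytokines 3.50 and 2.69 h (8 of 9) and ERK feedback inhibitors 3.52 and 2.30 h (4 of 4), whereas F-box and cullin genes had 3.41 and 3.40 h (9 of 20) and DNA replication genes 4.44 and 5.07 h (13 of 25). CCND1 had 4.99 and 4.51 h in knockdown cells against 3.60 and 2.07 h in overexpression cells, a log2 difference of 0.80 (SE 0.37, limma adjusted p = 0.641).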

How the data were processed

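The authors' deposited tables list, per library and annotated 3′ UTR interval, raw counts of reads, multimapped reads, covered T bases and T>C conversions, and a deposited CPM column relative to mapped reads, made with SLAMdunk 0.4.3 on hg38 (QuantSeq FWD libraries, 100 nt reads from 75 ng RNA). No source used here names the annotation release. T content equalled hg38 in all 62686 intervals used. Intervals naming several genes (1168, 2.55% of knockdown reads) and those with over 10% multimapped reads (7814, 15.8%) were left out, and the rest were summed by symbol.

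As in the study's methods, a gene needed 4 time points at 1 CPM. The unlabelled rate of the course was subtracted (negative values set to 0), rates were divided by that at 0 min and fitted to exp(-Kt), and fits under an R2 of 0.6 or with K at an end of the range searched (0.0001 to 10 per h) were dropped. Log2 half-lives were tested with limma 3.58.1 in R 4.3.3, Benjamini-Hochberg adjusted at 0.05. The code was also run on simulated exponential courses. These lack the departure from exponential decay seen here, so that run does not check the calls. Lists were described by counts, not tested. Counting error covers counting only, since reads carry no molecular identifiers.

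Samples were grouped from titles. The members and lists were chosen with earlier results of these data known. Named genes were the 12 shortest- and 12 longest-lived at 10 CPM or more, the extremes of each list, the 4 strongest disagreements each way at 50 CPM or more and 12 fixed genes. One gene that the rule names is not reported here. The time point filter of the study's methods removed nothing here. Alternatives covered the R2 filter, CPM minimum, multimapping, background, time points fitted, a fitted start, the variance trend and leaving out a course.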

Additional observations from a re-analysis of the deposited data

Results flagged for a closer look

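Named genes and lists were looked at again where both knockdown courses lay on one side of their course median and both overexpression courses on the other. TNIP2, an inhibitor of NF-kB signalling, had 7.58 and 8.79 h in knockdown courses and 3.49 and 3.53 h in overexpression courses, a log2 difference of 1.22 (SE 0.29, limma adjusted p = 0.641). BRCA1, a DNA repair gene, had 1.13 and 4.26 h in knockdown courses and 5.26 and 4.61 h in overexpression courses, a log2 difference of -1.17 (SE 0.61, limma adjusted p = 0.641). The lists were compared over the genes that every course of both lines measured. The RNA polymerase II and Mediator list had medians of 4.78 and 4.54 h in knockdown courses (mean 4.66 h), against 5.23 and 4.53 h in overexpression courses. The autophagy list had 4.81 and 5.31 h (mean 5.06 h), against 5.34 and 4.84 h. As medians of the mean half-life per gene, the first list had 4.68 h in knockdown and 4.86 h in overexpression cells. The autophagy list had 5.01 h in both lines by that measure. The difference between lines was not tested for either list.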

How the results depend on the processing

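The median half-life of 4.96 h became 5.50 h without the R2 filter, 4.57 h on shared times, 4.64 h with the start fitted, 3.30 h from 180 min on, 4.54 h without the 1440 min libraries and 5.74 h without the 720 min libraries, and it was 4.82 to 5.13 h on single courses. The share of genes within 1.5-fold between courses, 65.6%, became 45.3%, 60.5%, 73.0%, 47.1%, 68.3% and 61.4% under the same settings in that order, 41.9% from the label at 360 min alone, and, under alternatives chosen after seeing the data, 62.5% without the 10 min library and 58.9% with label left times relative CPM. The limma counts of 0 shorter-lived and 0 longer-lived genes became 194 and 583 with the variance trend, and the shorter-lived count became 8 with relative CPM. Trend counts under other settings were added after seeing the data. The 194 shorter-lived became 86 without the R2 filter, 308 at 10 CPM, 584 with the start fitted, 119 without 1440 min and 0 at 360 min alone (386 at an unadjusted p under 0.05). The 583 longer-lived became 1149 with the start fitted, 361 without 1440 min and 97 at 360 min alone. From 180 min on, RSBN1L (3.45 h), NME6 (3.31 h), INSIG1 (3.61 h) and LGALS8 (3.42 h), called shorter-lived, passed to the other side of the line median. The cause of these changes was not tested. limma called 0 genes between lines in each setting run for that comparison (the variance trend was not), including the replicate block (0 called, 208 at an unadjusted p under 0.05) and leaving out each course (0 called, 162 to 258), where the lone course was assumed to vary like the others. Equal replicate numbers did not pair the courses (correlation of their deviations -0.0226). The 18 lists at 0.5 log2 or more from the line median stayed on their side in each setting that gave them a value. Depth limits single genes under 30 CPM, and half-lives beyond the chase are extrapolated.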
